A study of Homo sapiens with 19 samples.

Results

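The NRF2 antioxidant response genes are described here by 9 members: NFE2L2, which encodes the transcription factor NRF2, and NQO1, HMOX1, GCLC, GCLM, TXNRD1, AKR1B10, AKR1C1 and AKR1C3, which are known NRF2 targets. Members were chosen by name, as the probe sets of the array that are annotated to 1 of these genes only. The 9 genes had 14 probe sets of the 22283 on the array. Of these 14 probe sets 13 passed the filter on dim signals, as did at least 1 for every member, and the 9 genes stood among 9552 genes tested. The AKR1C1 probe set 217626_at lay at or below its array's 40th percentile on all 19 arrays and was left out of the tests.

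The study profiled messenger RNA on 19 oligonucleotide arrays, 1 for each of 19 lines, in a series whose question is the link between doubled ploidy and metastatic behaviour. All lines are MDA-MB-231, a human triple-negative breast cancer line, or were derived from it. The labels name no treatment, and all lines were grown in DMEM with 10% FBS, antibiotics and selective drugs that the labels do not name, and were taken before confluence. The parental MDA-MB-231 had 1 array. The weakly bone-metastatic group held the lines 2293, 2295 and 2296 (2296 is 2297 in another label), and the strongly bone-metastatic group held 1833, 2274, 2268 and 2269. The weakly lung-metastatic group held SCP21, SCP6 and SCP26, and the strongly lung-metastatic group held 4142, 4173, 4175 and 4180. From 1833 and from 4175 there was 1 subline called modal-ploid and 1 called hyper-ploid, which made up the remaining 4 arrays. Each line was measured once and all share their origin, so p-values measure the spread between lines and not between cultures.

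NRF2 is a leucine zipper factor that is kept low in unstressed cells by KEAP1, an adaptor that hands it to a ubiquitin ligase. Oxidants and electrophiles modify KEAP1, NRF2 then builds up in the nucleus, pairs with a small MAF protein and binds antioxidant response elements before genes of glutathione synthesis, thioredoxin recycling, quinone and carbonyl reduction and heme breakdown. Because NRF2 is controlled mainly as a protein, the NFE2L2 transcript need not follow its activity. In breast cancer the pathway is known for protection of tumour cells against oxidative stress and drugs.

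The core of an antioxidant response element can be written TGACNNNGC, and the 120 bases before the start sites of 3 members are shown. No result below rests on these sequences, and a link between them and the levels was not tested. The sequences come from RefSeq (GRCh38.p14) and run 5′ to 3′ on the gene's strand, with a match to TGACNNNGC on either strand in capitals.
GCLM chr1:93909431-93909550 (- strand): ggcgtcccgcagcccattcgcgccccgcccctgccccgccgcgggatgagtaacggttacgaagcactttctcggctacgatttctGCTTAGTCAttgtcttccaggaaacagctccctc
AKR1C1 chr10:4963295-4963414 (+ strand): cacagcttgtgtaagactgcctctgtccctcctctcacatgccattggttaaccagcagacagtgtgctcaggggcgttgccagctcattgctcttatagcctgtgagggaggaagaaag
TXNRD1 chr12:104215659-104215778 (+ strand): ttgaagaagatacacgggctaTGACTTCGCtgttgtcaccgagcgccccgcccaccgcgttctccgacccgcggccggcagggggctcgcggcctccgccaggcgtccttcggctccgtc
TXNRD1 chr12:104286912-104287031 (+ strand): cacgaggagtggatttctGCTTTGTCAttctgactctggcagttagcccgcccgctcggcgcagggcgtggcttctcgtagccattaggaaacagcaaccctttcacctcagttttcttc
GCLM has its match on the reverse strand, GCTTAGTCA, 34 to 26 bases before the start. The 2 TXNRD1 starts shown hold TGACTTCGC on the gene's strand 99 to 91 bases before the first and GCTTTGTCA on the reverse strand 102 to 94 bases before the second. A further TXNRD1 match, GCTCCGTCA, spans the first start itself and is not in capitals. The AKR1C1 window holds no match, which says only that these letters are not in it. RefSeq windows of 250 bases before to 50 after a start were found for 7 members, 10 windows in all, of which 3 held TGACNNNGC. The motif stood in 13.3% of all 35116 windows. The motif TGANTCA, which shares its letters with AP-1 sites, stood in 0 of the 10 windows and in 7.71% of all. These matches are descriptions of letters and no measure of binding.

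Signals are given in units of the scaled array, in which every array has the same median, and differences are on the log2(signal + 16) scale, which understates the change of dim genes. Adjusted p-values come from limma with the Benjamini-Hochberg method over all 9552 genes, two-sided, with a threshold of 0.05. Values were compared only within an array set, because the deposited ratios of the parental line, the 1833 sublines and the bone lines had other divisors than those of the 4175 sublines and the lung lines. Before scaling, the biotin-labelled spike-in controls averaged 11.31 to 11.69 (log2) on the parental and bone arrays, 10.20 to 10.97 on the lung arrays and 9.52 to 9.77 on the 4 ploidy arrays. Array handling and target organ, or ploidy subline and line of origin, cannot be told apart by these levels. Within an organ they overlapped, at 11.50 to 11.69 in weak and 11.31 to 11.66 in strong bone lines and at 10.20 to 10.78 in weak and 10.44 to 10.97 in strong lung lines. Of the MDA-MB-231 markers VIM, CD44, EGFR, CAV1, AXL and MSN, 6 of 6 lay above the 40th percentile on all 19 arrays. Of 10 luminal markers 6 (ERBB2, GATA3, XBP1, KRT18, KRT8 and EPCAM) lay above it on all 19 arrays and 1, PGR, at or below it on all. ESR1, FOXA1 and CDH1 were above it on 16, 3 and 1 arrays. Of 6 leukocyte markers none lay above it on all 19, PTPRC and LYZ lay at or below it on all, and CD3E, CD14 and ITGAM were above it on 13, 13 and 14 arrays. Of 4 hepatocyte markers none lay above it on all 19.

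**Figure D1:**
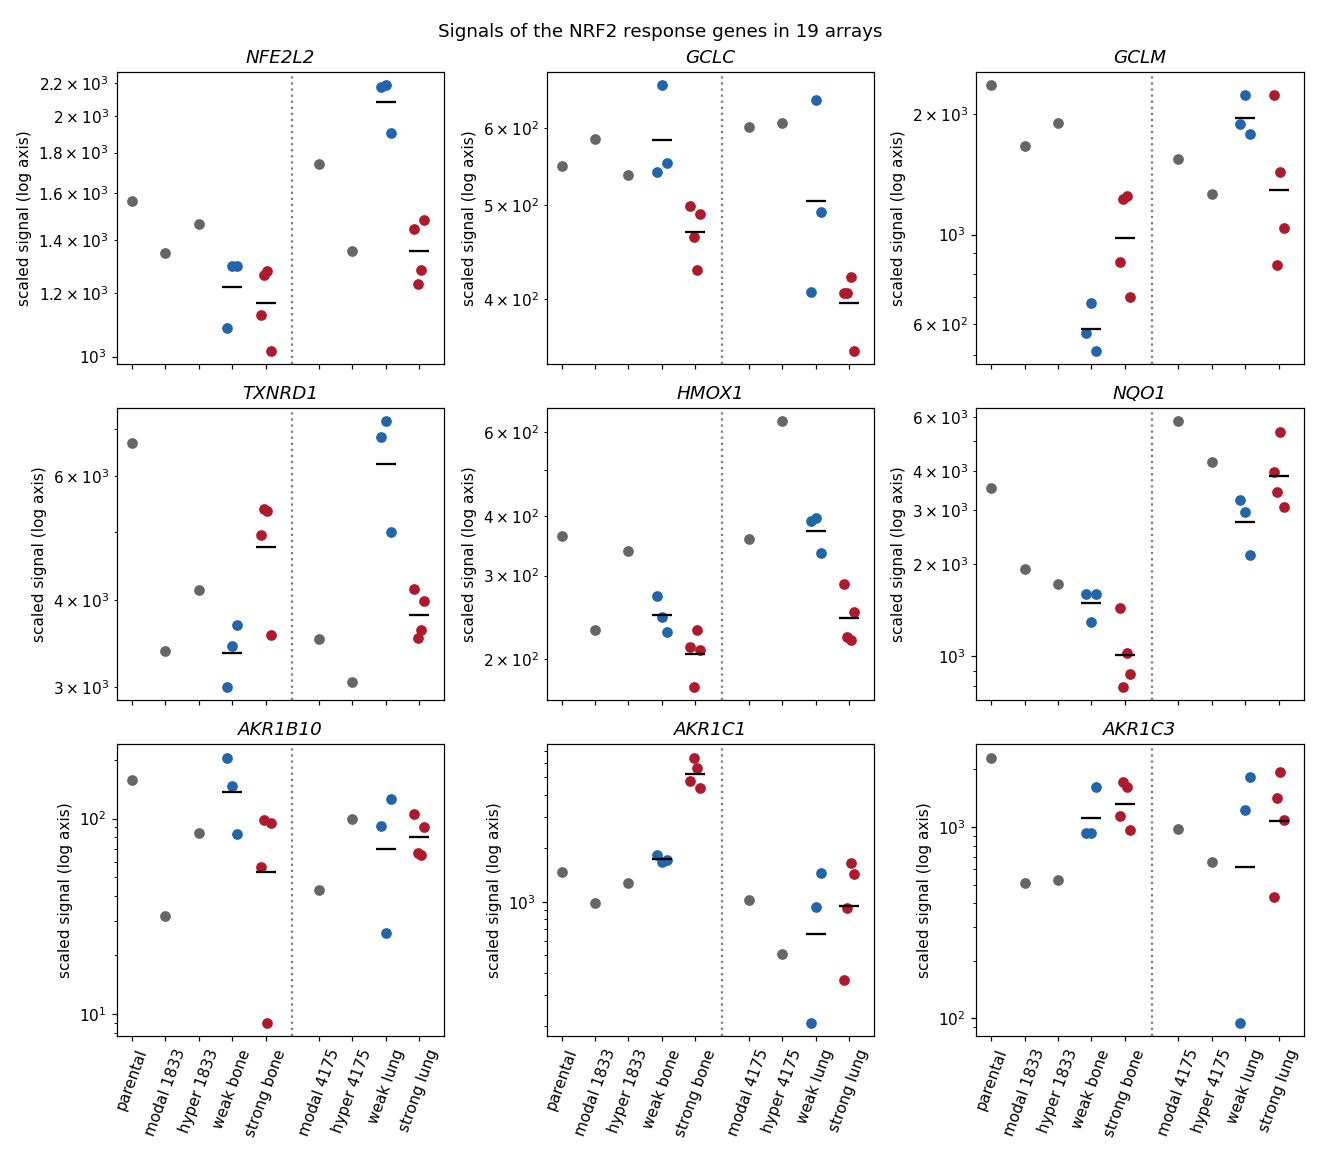
Scaled signal on a log axis (y, 1 range per gene) of the representative probe set of each of the 9 members, with 1 point per array and a bar at the mean of the log2 values of a strong or weak group. The dotted line parts the 2 array sets, and levels are comparable only on the same side of it. AKR1C1 parts the weak from the strong bone lines, and NFE2L2, TXNRD1 and HMOX1 part the weak from the strong lung lines.

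TXNRD1 had strong-against-weak differences of opposite sign in the bone and lung lines. TXNRD1 encodes the cytosolic thioredoxin reductase, the selenoprotein that uses NADPH to keep thioredoxin reduced. Its signal was 3003.5, 3439.0 and 3682.1 in the weak bone lines 2293, 2295 and 2296. It was 4955.6, 5389.9, 5353.7 and 3558.7 in the strong bone lines 1833, 2274, 2268 and 2269. Of the strong bone lines 2269 lay among the weak ones, and the other 3 lay above them all. In the lung lines the order was turned. Signals were 6827.1, 7187.4 and 4994.8 in the weak lines SCP21, SCP6 and SCP26, and 4145.6, 3524.0, 3617.9 and 3988.1 in the strong lines 4142, 4173, 4175 and 4180. Every strong lung line was below every weak one. The difference was 0.50 in bone (SE 0.19, limma adjusted p = 0.107, n = 4 against 3), which did not pass, and in lung TXNRD1 fell by 0.71 (SE 0.19, adjusted p = 0.0305, n = 4 against 3). The bone difference exceeded the lung difference by 1.21 (SE 0.27, 95% interval 0.64 to 1.78, adjusted p = 0.0104), with 3 of the 4 strong bone lines above all weak bone lines and 4 of the 4 strong lung lines below all weak lung lines. TXNRD1 was the 1 member of 9 called in this test of the difference, where 11.7% of all genes were called, 6.95% with the larger difference in bone and 4.78% with the smaller. The call held in 23 of 23 alternatives, with adjusted p from 0.00223 to 0.0331. The lung call by itself was lost with the 7 lung lines fitted alone (adjusted p = 0.0827) and without SCP21, SCP6, 4173, 4175 or 4180 (adjusted p of 0.0539 to 0.1), and the bone difference passed without 2269 (0.63, adjusted p = 0.0318).

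**Figure D2:**
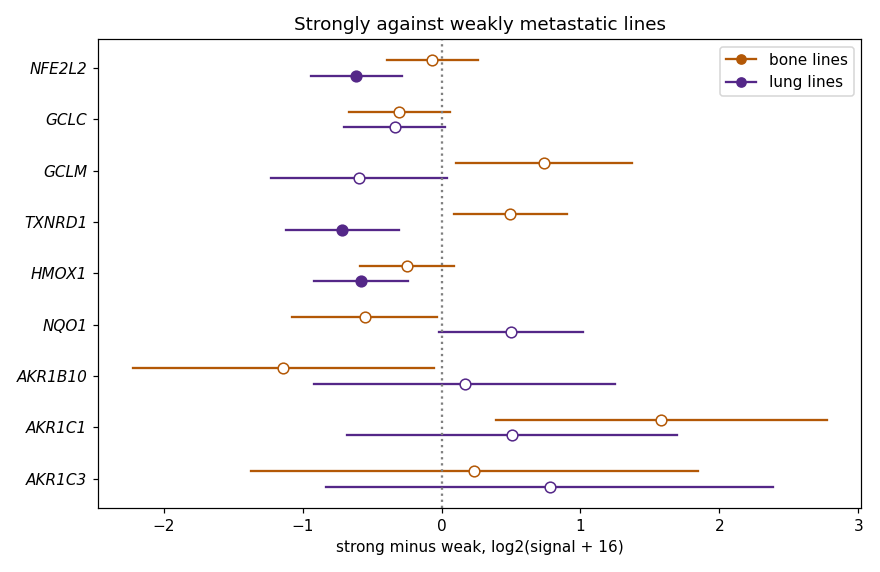
Strong minus weak difference in log2(signal + 16) (x) of the 9 members (y), for the bone lines and the lung lines, with bars for the 95% interval from limma. Filled points passed an adjusted p of 0.05, which only NFE2L2, TXNRD1 and HMOX1 in the lung lines did. TXNRD1 and GCLM lie on opposite sides of 0 in the 2 organs, and NQO1 and AKR1B10 do so with the signs the other way round.

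NFE2L2 itself differed between the lung groups. Its signals were 2175.5, 2186.4 and 1903.8 in the weak lines SCP21, SCP6 and SCP26 and 1443.2, 1233.3, 1283.0 and 1480.3 in the strong lines 4142, 4173, 4175 and 4180. The groups did not overlap, and NFE2L2 fell by 0.61 in the strong lines (SE 0.15, adjusted p = 0.0226, n = 4 against 3), a 1.53-fold lower level. In the bone lines it was 1085.5, 1297.5 and 1297.4 in 2293, 2295 and 2296 and 1127.4, 1266.5, 1280.3 and 1017.1 in 1833, 2274, 2268 and 2269. These groups overlapped, with a difference of -0.07 (SE 0.15, 95% interval -0.39 to 0.26, adjusted p = 0.838). The difference between the organs was 0.55 (SE 0.22, adjusted p = 0.121) and did not pass, so an effect particular to lung was not shown. NFE2L2 was among the steadiest members, with a 1.53-fold range over the 10 arrays of the first set and a 1.76-fold range over the 9 of the second.

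HMOX1, the inducible heme oxygenase that opens heme to biliverdin, carbon monoxide and iron, showed the same order in lung. Its signals were 389.7, 397.0 and 334.5 in SCP21, SCP6 and SCP26 and 288.0, 223.3, 219.8 and 251.8 in 4142, 4173, 4175 and 4180. No strong lung line reached a weak one, and HMOX1 fell by 0.58 (SE 0.16, adjusted p = 0.0351, n = 4 against 3), 1.49-fold. In bone its signals were 271.2, 245.5 and 228.0 in the weak lines 2293, 2295 and 2296 and 212.6, 175.1, 230.4 and 208.9 in the strong lines 1833, 2274, 2268 and 2269. There 2268 overlapped the weak lines, and the difference was -0.25 (SE 0.16, adjusted p = 0.345). The sign was thus the same in both organs, and the difference between them was 0.33 (SE 0.22, adjusted p = 0.379).

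Of the 9 members, 3 were lower and 0 higher in strong than in weak lung lines, where 8.79% of all genes were called, 3.35% higher and 5.44% lower. The same 3 were those whose lung groups did not overlap in the lower direction, against 11.4% of all genes, and no member had every strong line above every weak one, against 8.36%. The members' median lung difference was -0.34, beside -0.01 over all genes. With quantile normalisation 48.9% and with trimmed mean scaling 47.8% of the lung calls over all genes were higher, beside 38.1% here. All 3 lung calls were lost when the 7 lung lines were fitted alone (NFE2L2 adjusted p = 0.0946, HMOX1 0.123) and without SCP21, SCP6, 4173 or 4175, with NFE2L2 at an adjusted p of 0.0606 to 0.0729 and HMOX1 at 0.0856 to 0.101. Without 4180 NFE2L2 alone of the 3 stayed called. The summed signal of 9 endothelial and stromal markers was 874 to 995.6 in weak and 1260 to 1467 in strong lung lines. Of these markers 3 were above the 40th percentile on all 19 arrays, and CDH5 and VWF were at or below it on all 19. Of the 6 tested, PECAM1 and COL1A1 were called higher in the strong lines, and the median difference was 0.30. The dim KDR and PDGFRB leaned the other way. The part of these markers in the results was not tested.

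In the bone lines 0 of the 9 members passed the limma threshold, where 11.6% of all genes did (6.8% higher and 4.77% lower), and 5 of 9 had an unadjusted p under 0.05, where 26.7% of all genes had. Of the genes called over the whole array 58.8% were higher, and 49.8% with quantile normalisation and 47.3% with trimmed mean scaling. AKR1C1 and GCLM had every strong bone line above every weak one, as 14.6% of all genes had, and GCLC had every strong line below, as 12.9% had. The members' median difference was -0.07, beside 0.01 over all genes. The summed signal of the endothelial and stromal markers was 1158.1 to 1355.4 in weak and 738.1 to 1146.3 in strong bone lines. Of the 6 markers tested 1 was called, PECAM1, at 284.1 to 482.1 in weak and 86.9 to 156.7 in strong lines. COL3A1 leaned the other way, at 40.1 to 83.7 in weak and 65.3 to 103.9 in strong lines. The median difference of the 6 was 0.04, while the summed signals of the weak and strong lines did not overlap. The part of these markers in the results was not tested.

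AKR1C1 showed the widest strong-against-weak difference of the members in bone. The AKR1C enzymes reduce steroids, prostaglandins and reactive aldehydes with NADPH. On the representative probe set, 204151_x_at, the weak bone lines 2293, 2295 and 2296 had signals of 1831.8, 1670.7 and 1715.7. The strong bone lines 1833, 2274, 2268 and 2269 had signals of 4756.3, 6453.4, 5620.9 and 4349.9. The lowest strong line was thus far above the highest weak line, and the difference was 1.58 (SE 0.55, 95% interval 0.39 to 2.77, adjusted p = 0.0821, n = 4 against 3), 2.99-fold. The SE was pooled over the 14 bone and lung lines, and AKR1C1 was widely spread among the latter. It was 208.0, 932.8 and 1446.7 in SCP21, SCP6 and SCP26 and 363.1, 928.9, 1652.2 and 1424.7 in 4142, 4173, 4175 and 4180. With the 7 bone lines fitted alone the adjusted p was 0.0024. It was also under the threshold with a pseudocount of 64 (0.0327), with a stricter filter (0.0393) and with the mean of its probe sets (1.77, 0.0208). In the lung lines the groups overlapped, at 0.51 (SE 0.55, adjusted p = 0.636), and the sign turned to -0.29 without SCP21.

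The second AKR1C1 probe set, 216594_x_at, gave 1224.6, 827.4 and 937.4 in the weak bone lines 2293, 2295 and 2296. It gave 3670.8, 4904.0, 4149.4 and 2980.3 in the strong bone lines 1833, 2274, 2268 and 2269. Tested by itself among 14360 probe sets it rose by 1.96 in strong bone lines (SE 0.35, adjusted p = 0.00369), and its bone difference exceeded its lung difference by 1.81 (SE 0.50, adjusted p = 0.033). The representative probe set, tested so, had an adjusted p of 0.0826. AKR1C1 and its neighbour AKR1C2 are near-identical copies, and the suffix of these probe sets marks probes that may hybridise with several transcripts, so the signal cannot be assigned to AKR1C1 alone. The 2 AKR1C2 probe sets had bone differences of 1.42 (SE 0.47, adjusted p = 0.0667) and 1.84 (SE 0.61, adjusted p = 0.069).

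AKR1C3, the family member that makes testosterone from androstenedione, did not part the bone lines. Its signals were 925.5, 933.3 and 1620.7 in 2293, 2295 and 2296 and 1143.6, 1708.2, 1610.3 and 962.0 in 1833, 2274, 2268 and 2269. The difference was 0.23 (SE 0.75, 95% interval -1.37 to 1.84, adjusted p = 0.887). Among the lung lines AKR1C3 ranged from 94.3 in SCP21 to 1937.8 in 4175, the widest range of any member within a set (17.7-fold over 9 arrays). SCP6 and SCP26 had 1230.6 and 1820.6, and the other strong lines 4142, 4173 and 4180 had 429.9, 1424.6 and 1091.1. The lines SCP21 and 4142, 1 from each group, were the lowest 2 of the lung lines for both AKR1C1 and AKR1C3. The lung difference of AKR1C3 was 0.78 (SE 0.75, adjusted p = 0.583), and -0.48 without SCP21.

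**Figure D3:**
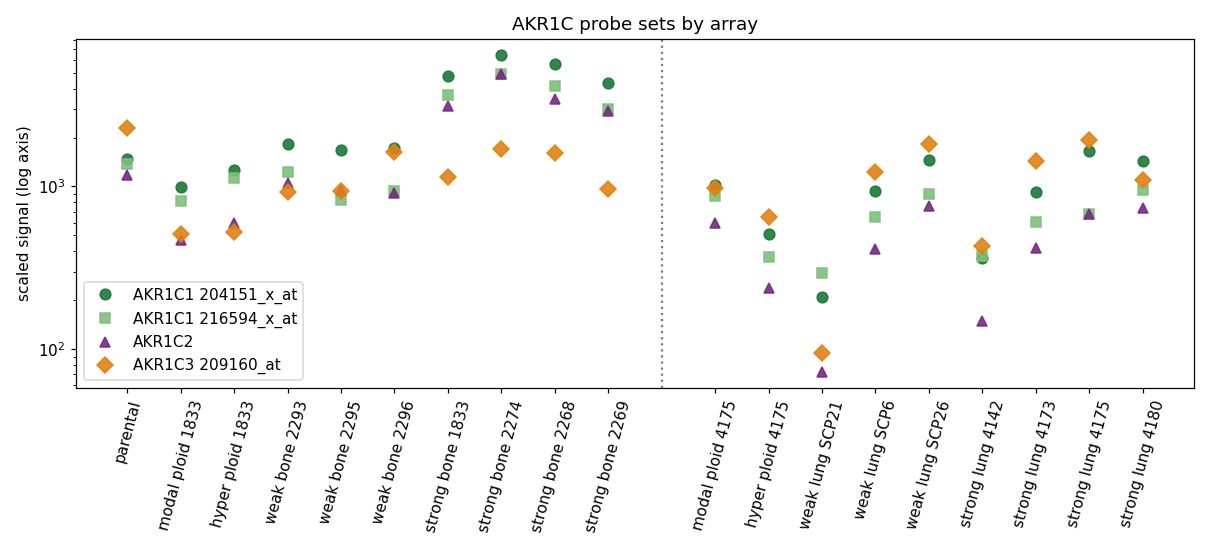
Scaled signal on a log axis (y) of AKR1C probe sets on each of the 19 arrays (x), 1 symbol per probe set, with a dotted line between the array sets. Heights are to be compared within 1 symbol only. Both AKR1C1 probe sets are higher in the 4 strong bone lines than on any other array of their set, and AKR1C3 is lowest in SCP21 at 94.3.

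AKR1B10, an aldose reductase family member that reduces retinal and lipid aldehydes, was dim, above the 40th percentile on 12 of 19 arrays. Its signals were 204.5, 146.0 and 83.1 in the weak bone lines 2293, 2295 and 2296 and 56.5, 98.2, 9.0 and 95.2 in the strong bone lines 1833, 2274, 2268 and 2269. The groups overlapped, and the difference was -1.14 (SE 0.51, adjusted p = 0.167). In the lung lines it was 91.2, 26.1 and 125.3 in SCP21, SCP6 and SCP26 and 105.1, 66.8, 65.4 and 90.6 in 4142, 4173, 4175 and 4180. There the difference was 0.17 (SE 0.51, adjusted p = 0.883), with a negative sign under quantile normalisation and without SCP6.

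The 2 subunits of glutamate-cysteine ligase, which makes the first and rate-limiting step of glutathione synthesis, did not pass in either organ. GCLM, the modifier subunit that raises the activity of the enzyme, had signals of 567.2, 674.7 and 514.0 in 2293, 2295 and 2296 and of 854.7, 1224.8, 1250.7 and 700.4 in 1833, 2274, 2268 and 2269. The lowest strong bone line was just above the highest weak one, with a difference of 0.74 (SE 0.30, adjusted p = 0.126). In lung GCLM was 1888.4, 2223.0 and 1777.9 in SCP21, SCP6 and SCP26 and 2222.2, 839.9, 1435.6 and 1036.4 in 4142, 4173, 4175 and 4180. The strong line 4142 lay with the weak lines and the other 3 lay below them, a difference of -0.59 (SE 0.30, adjusted p = 0.251). The bone difference exceeded the lung difference by 1.33 (SE 0.42, adjusted p = 0.0547), which did not pass. It passed in 6 of 23 alternatives, quantile normalisation (adjusted p = 0.0469), trimmed mean scaling (0.0466), a pseudocount of 64 (0.0315), the stricter filter (0.0251) and the fits without 2269 (0.0327) or 4142 (0.0132).

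GCLC, the catalytic subunit, was 541.1, 664.5 and 552.3 in the weak bone lines 2293, 2295 and 2296 and 499.2, 463.4, 428.7 and 489.9 in the strong lines 1833, 2274, 2268 and 2269. Every strong bone line was below every weak one, yet the difference of -0.30 (SE 0.17, adjusted p = 0.274) did not pass. Its other probe set, 202922_at, had a bone difference of -0.46 (SE 0.15, adjusted p = 0.0689). In lung GCLC was 406.6, 640.8 and 492.2 in SCP21, SCP6 and SCP26 and 406.2, 406.1, 421.6 and 353.9 in 4142, 4173, 4175 and 4180. SCP21 lay among the strong lines, and the difference was -0.34 (SE 0.17, adjusted p = 0.255), which the other probe set did not share (0.01, SE 0.15).

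NQO1, the quinone reductase that is the most used readout of NRF2 activity, did not pass in either organ, with a negative difference in bone and a positive one in lung. On its representative probe set it was 1591.8, 1294.1 and 1597.2 in the weak bone lines 2293, 2295 and 2296 and 1437.3, 796.1, 1026.5 and 877.0 in the strong lines 1833, 2274, 2268 and 2269. The strong line 1833 lay among the weak lines and the other 3 lay below them, with a difference of -0.55 (SE 0.24, adjusted p = 0.161). In lung it was 3230.7, 2956.0 and 2132.3 in SCP21, SCP6 and SCP26 and 3988.3, 3413.5, 5367.3 and 3060.7 in 4142, 4173, 4175 and 4180. Of the strong lung lines 4180 lay among the weak ones, and the difference was 0.50 (SE 0.24, adjusted p = 0.237). The difference between the organs was -1.05 (SE 0.34, adjusted p = 0.0622), which did not pass. It was past the threshold in 5 of 23 alternatives, quantile normalisation (0.0218), trimmed mean scaling (0.0209), a pseudocount of 64 (0.0394), the stricter filter (0.0308) and the fit without the strong bone line 1833 (0.0323). The other NQO1 probe sets had the same signs, at -0.24 and -0.70 in bone and 0.44 and 0.24 in lung.

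Of the 9 members 6 had a larger difference in bone than in lung and 3 a smaller one, with a median of 0.33 beside 0.03 over all genes. Of all genes called in this test 59.2% had the larger difference in bone, and 48.6% with quantile normalisation and 48.8% with trimmed mean scaling.

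The hyper-ploid and modal-ploid sublines were compared within pairs that share a line of origin. Of the 9 members 0 passed in limma, where 0.0105% of all genes, 1 gene, did, and 2 members had an unadjusted p under 0.05, where 5.13% of all genes had. With 2 pairs the comparison left 1 residual degree of freedom before moderation. AKR1B10 had 84.5 (hyper-ploid) and 31.8 (modal-ploid) in the sublines of 1833, and 99.1 and 42.9 in those of 4175. Both modal-ploid sublines were at or below the 40th percentile, so only a lower bound on the fold can be given. Against that percentile's level the hyper-ploid mean was at least 1.24-fold higher, with 1.13-fold for the pair from 1833 and 1.36-fold for that from 4175. The limma difference on the measured signals was 1.02 (SE 0.26, adjusted p = 0.374, n = 2 against 2).

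HMOX1 had 337.3 (hyper-ploid) and 230.9 (modal-ploid) in the sublines of 1833, and 632.1 and 358.5 in those of 4175. Both pairs had the higher level in the hyper-ploid subline, with a mean difference of 0.65 (SE 0.27, adjusted p = 0.848). On its representative probe set NQO1 was lower in both, 1715.6 against 1925.3 for 1833 and 4276.4 against 5808.1 for 4175, a mean of -0.30 (SE 0.27, adjusted p = 0.9997). On the representative probe sets AKR1B10, HMOX1 and NQO1 were the members with 1 sign in both pairs, which 46.9% of all genes had. These signs depended on the probe set. On 201467_s_at NQO1 was higher in the hyper-ploid subline of 1833 (551.8 against 442.0). On 202922_at GCLC was lower in both hyper-ploid sublines, 287.1 against 335.8 for 1833 and 356.4 against 425.7 for 4175. On the representative probe sets the other 6 members had opposite signs in the 2 pairs. The widest gap among them was that of AKR1C1, at 987.2 modal and 1270.9 hyper for 1833 but 1023.0 modal and 510.1 hyper for 4175, differences of 0.36 and -0.98.

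**Figure D4:**
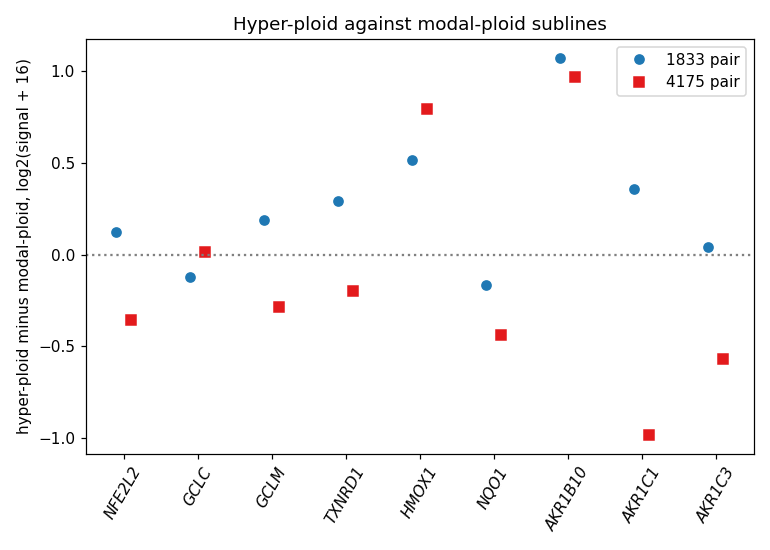
Hyper-ploid minus modal-ploid difference in log2(signal + 16) (y) of the 9 members (x), with 1 point for the 1833 pair and 1 for the 4175 pair and no error, since each subline had 1 array. On the representative probe sets shown, AKR1B10 and HMOX1 lie above 0 in both pairs and NQO1 below 0 in both. The modal-ploid signals of AKR1B10 were at or below the 40th percentile, so the height of its points is not a bound.

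The sublines can be set beside the original lines 1833 and 4175, 1 array each and with no test. AKR1C1 was 4756.3 in the original 1833, 4.76-fold above its modal-ploid subline and 3.71-fold above its hyper-ploid one. AKR1C3 was 1143.6 in the original 1833 and 511.2 and 527.0 in its modal-ploid and hyper-ploid sublines, and 1937.8 in the original 4175 and 973.3 and 652.1 in its sublines. Both sublines of both lines were thus below their original for AKR1C3. The same held in 4175 for the representative AKR1C1 probe set, at 1652.2 against 1023.0 and 510.1. On 216594_x_at the original 4175 had 680.8, below its modal-ploid subline (869.6) and above its hyper-ploid one (371.1). GCLM went the other way in 1833, with 854.7 in the original and 1661.2 and 1896.4 in its sublines. HMOX1 was 219.8 in the original 4175 and 358.5 and 632.1 in its sublines, so the hyper-ploid subline was 1.46 higher on the log2 scale. The ploidy arrays had lower spike-in levels than the arrays of the original lines, as given above, and the part of this in these differences was not tested.

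The parental MDA-MB-231 had the highest signal of its 10-array set for 6 of the 9 members. These were NFE2L2 (1567.6), NQO1 (3523.2), HMOX1 (363.0), GCLM (2356.1), TXNRD1 (6685.4) and AKR1C3 (2301.0), each above all 9 other arrays. GCLM was 1.99 above the mean of the weak and 1.25 above that of the strong bone lines, and NQO1 was 1.24 and 1.79 above them. GCLC (548.9) lay within the range of the bone lines and AKR1B10 (158.0) was exceeded by 1 of them. On its representative probe set AKR1C1 was the exception, at 1477.6 in the parental line, which was below all 7 bone lines and 1.81 below the mean of the strong ones. This depended on the probe set. On 216594_x_at the parental line had 1382.5, above the weak bone lines (1224.6, 827.4 and 937.4) and below the strong ones. With 1 parental array none of this has a replicate check. The share of all genes that were highest on this array was not counted, so 6 of 9 cannot be read as particular to the members.

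Across the 19 arrays, after each array set's own mean was subtracted, the 9 members did not form 1 pattern. Of the 36 pairs of members 20 had a positive Pearson r and 16 a negative one, with a median of 0.02, and 5 exceeded 0.5. NFE2L2 was most like TXNRD1 among the members (r = 0.72) and next like GCLM (0.64). GCLM and TXNRD1 had r = 0.60, HMOX1 and GCLC 0.61, and AKR1C1 and AKR1C3 0.73. The highest r of NQO1 with another member was 0.37 and that of AKR1B10 was 0.16. Among all genes the ones most like each member were DYNC1I2 for NFE2L2 (0.91), ROR1 for TXNRD1 (0.92), EIF4G1 for GCLM (0.87), CALU for GCLC (0.84), IDH2 for HMOX1 (0.84) and NIBAN1 for NQO1 (0.87). They were COL15A1 for AKR1B10 (0.85), AKR1C2 for AKR1C1 (0.99) and TRAF3IP2 for AKR1C3 (0.90). The AKR1C1 and AKR1C2 probe sets may hybridise with the same transcripts, and the part of this in their r was not tested. The arrays share lines of origin and group, so these values are descriptions.

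Other genes of the pathway were counted from 8 lists of 91 genes, of which 77 were on the array and 74 were tested. In the bone comparison 8 were higher and 5 lower in the strong lines (17.6% called, beside 11.6% of all genes), with a median difference of 0.17. In the lung comparison 2 were higher and 14 lower (21.6%, beside 8.79%), with a median of -0.04. In the test of the difference between the organs 10 had the larger and 1 the smaller difference in bone (14.9%, beside 11.7%), and between the ploidy sublines 0 were called. Of the 13 NRF2 regulators tested, among them KEAP1 and the small MAF proteins, 0 were called in bone, and 1, the KEAP1-binding peptidase DPP3, was lower in lung (-0.99, SE 0.25, adjusted p = 0.024), a call lost without any 1 of 5 of the 7 lung lines. KEAP1 itself differed by 0.45 in bone (SE 0.25, adjusted p = 0.263) and by -0.04 in lung (SE 0.25, adjusted p = 0.945). Of the 11 calls in bone and 16 in lung that met the rule for names, 4 and 6 held in every alternative and with every line left out, and no sign turned.

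In the glutathione list 3 of 20 genes were higher and 3 lower in the strong bone lines. The 2 chains of the cystine transporter that supplies cysteine for GCLC and GCLM were both higher. SLC7A11 was 110.7, 164.8 and 201.4 in the weak bone lines 2293, 2295 and 2296 and 937.8, 382.6, 803.5 and 422.2 in the strong lines 1833, 2274, 2268 and 2269, without overlap (1.83, SE 0.38, adjusted p = 0.00846). SLC3A2 rose by 1.18 (SE 0.26, adjusted p = 0.0116) and the glutathione transferase GSTA4 by 0.94 (SE 0.18, adjusted p = 0.00582). GPX4, the peroxidase that clears lipid hydroperoxides, fell by 1.03 (SE 0.24, adjusted p = 0.0156), a call lost without 2293 or 2295. GSTP1 (-0.94, SE 0.16, adjusted p = 0.00278) and GPX3 (-0.81, SE 0.21, adjusted p = 0.0241) were lower in the strong bone lines as well. For GSTP1 and GPX3 in bone no fits with single lines left out are given. In lung 0 of the 20 were higher and 3 lower, led by GSTM1 (-1.10, SE 0.17, adjusted p = 0.00126), whose transcripts are near-copies of other GSTM genes.

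In the thioredoxin list, where TXNRD1's partners stand, 0 of 9 genes were called in bone and 2 were lower in lung. TXNIP, the inhibitor of thioredoxin, fell by 1.25 (SE 0.25, adjusted p = 0.00689) and the peroxiredoxin PRDX4 fell by 0.85 (SE 0.15, adjusted p = 0.00356). Of the NADPH enzymes PGD rose in bone (0.87, SE 0.24, adjusted p = 0.0293) and ME1 fell in lung (-1.07, SE 0.21, adjusted p = 0.00509). Of the heme and iron genes, beside HMOX1, the ferrochelatase FECH rose in bone by 0.81 (SE 0.18, adjusted p = 0.0108) and fell in lung by 1.02 (SE 0.18, adjusted p = 0.00266), a difference of 1.83 (SE 0.25, adjusted p = 0.000397). The carbonyl reductase CBR1 likewise rose in bone by 0.73 (SE 0.21, adjusted p = 0.0385) and fell in lung by 0.88 (SE 0.21, adjusted p = 0.0181), a difference of 1.61 (SE 0.30, adjusted p = 0.00344). The PGD call was lost without any 1 of 6 of the 7 bone lines, and the CBR1 bone call likewise. The FECH bone call was lost without 2296, the CBR1 lung call without SCP6 or 4173, and the differences of both between the organs held with every line left out. In the alternatives that kept every line of the organ, the FECH lung call held in 9 of 10 (adjusted p up to 0.0699). There the CBR1 bone call held in 8 of 10 (adjusted p up to 0.0795).

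Among the exporters that carry conjugates out of the cell, ABCG2 was 99.7, 63.4 and 100.2 in the weak bone lines and 370.1, 494.2, 265.7 and 297.4 in the strong ones (1.83, SE 0.27, adjusted p = 0.000968). The weak line with 63.4 was under its array's 40th percentile. ABCC3 fell in both organs (adjusted p = 0.0261 in bone and 0.00144 in lung). Its signal was 147.7, 80.5 and 284.4 in the weak bone lines 2293, 2295 and 2296 and 50.1, 10.8, 18.9 and 57.0 in the strong ones 1833, 2274, 2268 and 2269. It was 154.9, 815.9 and 337.2 in SCP21, SCP6 and SCP26 and 27.9, 24.2, 25.2 and 27.8 in 4142, 4173, 4175 and 4180. All 8 strong lines were under their array's 40th percentile, so ABCC3 was at least 1.79-fold lower in strong bone and at least 3.72-fold lower in strong lung lines, taking that percentile's level for the strong lines. The ABCC3 bone call was lost without 2293, 2296, 2274 or 2268. ALDH3A1 rose in lung (adjusted p = 0.0137), from 24.7, 24.5 and 36.3 in the weak lines to 56.9, 317.9, 172.8 and 139.4 in the strong ones. The weak lines and the strong line with 56.9 were under their arrays' 40th percentile, so no bound on the fold is given. The epoxide hydrolase EPHX1 fell by 1.53 (SE 0.35, adjusted p = 0.0154), a call lost without SCP6. The superoxide dismutase SOD1 was higher in bone (0.53, SE 0.16, adjusted p = 0.0489) and lower in lung (-0.60, SE 0.16, adjusted p = 0.0323), and the extracellular SOD3 was lower in bone (-0.75, SE 0.22, adjusted p = 0.04) and higher in lung (0.89, SE 0.22, adjusted p = 0.0213). The SOD1 and SOD3 calls in each organ were lost without several single lines, while their differences between the organs (1.13, adjusted p = 0.00597, and -1.64, adjusted p = 0.00396) held with every line left out.

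**Figure D5:**
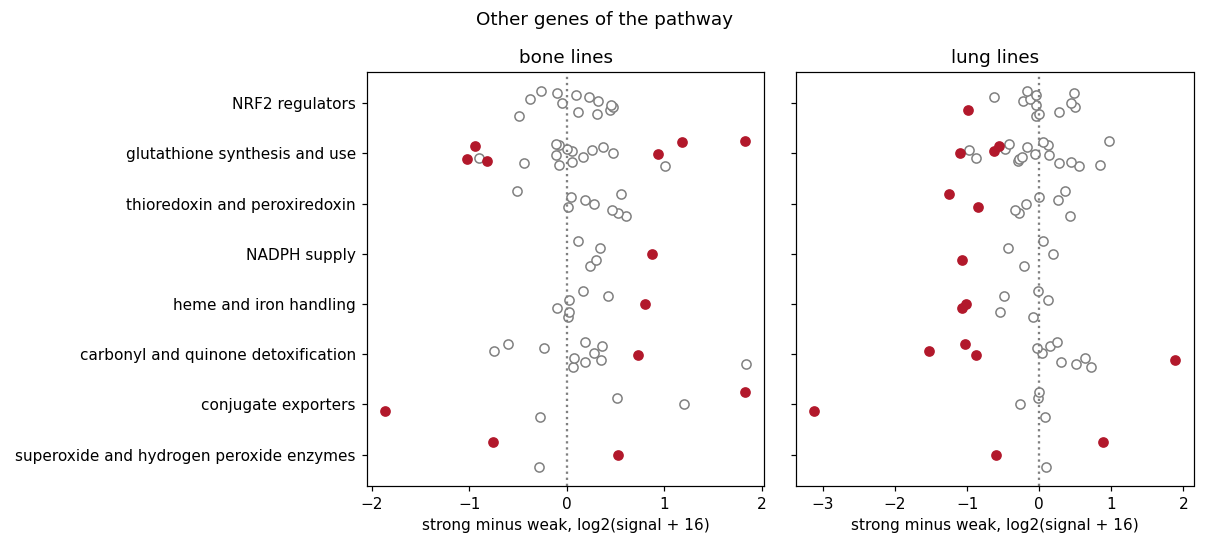
Strong minus weak difference in log2(signal + 16) (x) of the 74 other pathway genes tested, by list (y), for the bone lines and the lung lines, 1 point per gene. The points of ABCC3 rest on signals under the 40th percentile in the strong lines. In lung, ALDH3A1 was under it in the weak lines and the lowest strong line. In bone, ABCG2 was under it in the lowest weak line. Filled points passed an adjusted p of 0.05, 13 in bone, of which 8 were higher, and 16 in lung, of which 14 were lower. The vertical place within a list has no meaning.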

How the data were processed

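RNA of 19 lines was hybridised to 1 array each, after column extraction and standard biotin labelling per the labels' protocols. The authors deposited linear ratios. How these were made from the scanned images is not given in the sources used here. Values ran from 0.00115 to 361, and their median over arrays was 1 (tolerance 1e-06) for 91.6% of probe sets in 10 arrays and for 0.0224% in the other 9, so the deposited ratios were treated as 2 sets with separate divisors. What the second divisor was is unknown.

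On each array the ratios were whole multiples of a step of 0.1 signal units once divisors were taken out, which recovered signals for 22263 of 22283 probe sets (99.9%, tolerance 0.01 steps at low values, largest distance 0.0494). The log2 divisors of both sets correlated with r = 0.97. The recovered signals, not the ratios, were analysed. Arrays were scaled to a common median, and log2(signal + 16) was used. The array trimmed mean was 493.8 to 494.6 on 15 arrays and 319.8 to 357.2 on the 4 ploidy arrays before scaling. Probe sets above their array's 40th percentile on at least 2 arrays were kept. The probe set with the highest mean stood for a gene. Of the recovered probe sets 19060 had 1 gene symbol in the platform annotation, 1038 had several and 2165 none, and only the first were named.

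Differences were fitted with limma 3.58.1 (lmFit and eBayes) in R 4.3.3 and with Python 3.11.15. The bone and lung comparisons used the 14 lines of the 4 groups with 1 mean per group (10 residual and 3.95 prior degrees of freedom), and the ploidy comparison used the line of origin, given by the labels, as a block (1 residual and 10.4 prior degrees). The number of arrays limits the precision. The scripts were tested on simulated data.

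The members, the lists and the rule for names were chosen with earlier results of these data known. All members are named. Of the other lists the rule for names admitted genes past the threshold, at most 4 per list and comparison. The bone calls of GSTP1 and GPX3 are named beyond that limit. Not every call that met it is described above. Among those left out are BLVRB, GSTM2, GSTP1 and PIR, all lower in strong lung lines, and calls of some cell type markers. Of these, GSTP1 was also lower in strong bone lines, as given above. For likeness, the gene and the member with the highest r are named. RefSeq windows were searched on both strands. The alternatives were other scalings, pseudocounts of 1 and 64, no filter and a stricter one (above the 60th percentile on at least 4 arrays), the deposited ratios on a log2 scale, other ways to join probe sets, fits on 1 organ, fits without the block, and each line left out.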

Additional observations from a re-analysis of the deposited data

Results flagged for a closer look

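The strong-against-weak difference of TXNRD1 was 1.21 larger on the log2 scale in the bone lines than in the lung lines (SE 0.27, limma adjusted p = 0.0104), by a test of the difference itself. The lines behind it were 4 strong and 3 weak for each organ. No cause was weighed. In the strong bone and the strong lung groups, of 4 lines each, none of the 9 members had a line that stood apart by Dixon's criterion. The groups of 3 weak lines are too small for it and were not checked, among them the weak lung lines, where AKR1C3 was 94.3 in SCP21 beside 1230.6 and 1820.6.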

How the results depend on the processing

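Of 626 member values under alternatives, 574 kept their direction and their side of the threshold, 17 lost it, 16 gained it and 19 changed sign. The members called in bone were 0, and 1 (AKR1C1) with a pseudocount of 64, the stricter filter, the mean of probe sets or the 7 bone lines alone, and 0 to 1 with single lines left out. In lung they were 3, 0 with the 7 lung lines alone, and 0 to 3 with single lines left out. In the difference between organs they were 1, and 3 (with GCLM and NQO1) under quantile normalisation, trimmed mean scaling, a pseudocount of 64 or the stricter filter, and 1 to 2 with single lines left out. The ploidy comparison gave 0 members in every alternative run.

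Over all genes, bone calls were 1106, and 542 to 1254 with single lines left out (577 without 2293, 542 without 2295, 613 without 2296, 731 without 2274). Lung calls were 840, 441 with the lung lines alone, and 500 to 1001 with single lines left out (539 without 4173, 500 without 4175). Calls of the difference between organs were 1121, and 789 to 1402 with single lines left out. The ploidy comparison called 1 gene, 25 with the stricter filter, and 0 under quantile normalisation, trimmed mean scaling, a pseudocount of 1, no filter or the deposited ratios. Without the replicate block, which pairs sublines by line of origin, it called 0. Without the 1833 pair it called 0 and without the 4175 pair 1, where 1 array stood against 1 and the spread was taken from the groups of all 19 arrays, so the lone arrays are assumed to vary like the other groups and these counts say nothing about stability.

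The signs that turned were near 0 or rested on 1 line. In bone, NFE2L2 was 0.000139 without 2269 and ranged from -0.15 with single lines left out. In lung, AKR1B10 was -0.024 under quantile normalisation and -0.35 without SCP6, AKR1C1 was -0.29 and AKR1C3 -0.48 without SCP21; with single lines left out these 3 reached 0.52, 1.06 and 1.55. Between organs, AKR1C3 was 0.71 without SCP21 (from -1.32 with single lines left out), and GCLC was -0.13 under quantile normalisation, -0.11 under trimmed mean scaling, -0.22 with the mean of probe sets and -0.13 to 0.18 with single lines left out. In the ploidy comparison, GCLC was 0.012 and TXNRD1 -0.20 without the 1833 pair, and NFE2L2 was 0.12, GCLM 0.19, AKR1C1 0.36 and AKR1C3 0.042 without the 4175 pair. The cause of these changes was not tested.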
